A study of Mus musculus with 6 samples.

Results

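T and natural killer (NK) cells were taken from single-cell RNA-seq of mouse brain microvessels as a set of 61 barcodes among 27852 that passed the filters (0.219%). A barcode had to hold at least 1000 UMIs (unique molecular identifiers, the counted transcript tags) and at most 15% mitochondrial UMIs. It had to show at least 2 of 5 marker genes, Cd3e, Cd3g, Nkg7, Ccl5 and Trbc2, and at most 1 of the endothelial genes Cdh5, Flt1 and Cldn5. Any UMI of C1qa, a microglial complement gene, or of Cd79a, part of the B cell receptor, removed it. These values chose the cells, so the levels of all genes in them are given as a description, with no test against other cells.

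The microvessels were pulled from enzymatically digested brains with beads carrying an antibody against PECAM1, and the cells were run on the 10x Genomics v3.1 chemistry. All mice were C57Bl6 with floxed Cldn5 (Cldn5 fl/fl) and the R26 YFP/YFP reporter, and all were given tamoxifen by gavage (100 µl at 20 mg/ml) on 3 days when about 3 months old. The 3 control libraries carried no Cre, and the 3 Cldn5 iECKO libraries also carried Cdh5-creERT2, whose recombinase is driven by the promoter of an endothelial cadherin gene, so that the deletion was aimed at endothelial cells and not at lymphocytes. No label states how many animals went into a library, so each p-value here reflects only how far these libraries differ from one another.

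T cells recognise antigen with a receptor of alpha and beta, or gamma and delta, chains that signals through the CD3 proteins. CD4 and CD8 are the coreceptors of helper and cytotoxic T cells. NK cells lack the T cell receptor and kill through granules of perforin and granzymes, using activating and inhibitory receptors of their own. In a healthy brain few of either lie in the parenchyma, and most are met in blood, meninges and choroid plexus. A bead isolation without prior sorting of blood cells can hold lymphocytes from the vessel lumen as well as from the wall, and the labels do not say whether blood was flushed out.

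The members held 245407 UMIs in all, 1675 to 8144 per cell with a median of 4044, a median of 1277 genes and a median mitochondrial share of 3.86%. In the pooled members 1 UMI is worth 4.07 UMIs per 1000000 (CPM), and 3 counts, the limit that a count of 0 allows, 12.2 CPM. Pooled values lean on control 1, control 3 and iECKO 3, which gave 49 of the 61 cells and 82.5% of the UMIs. Replicate 2 of both groups stood apart. Gm42418, a predicted gene that overlaps ribosomal RNA sequence, took 12.9% of member UMIs in control 2 and 16.3% in iECKO 2, against 1.52% to 5.29% in the other libraries, and those libraries gave only 3 and 2 members. Of 30490 distinct barcodes, 96 occurred in more than 1 library. Of the members, 1 had a barcode also present in another library, and none was shared between members. The yfp feature had 0 UMIs in every member and library.

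Whether endothelial deletion of Cldn5 went with a different share of these lymphocytes was asked over libraries. In the controls 21 of 5365, 3 of 5786 and 14 of 3898 kept barcodes were members, or 0.391%, 0.0518% and 0.359% (replicates 1 to 3). In the iECKO libraries the counts were 7 of 6785, 2 of 2227 and 14 of 3791, or 0.103%, 0.0898% and 0.369%. The exact Clopper-Pearson 95% intervals, which cover counting error only, were 0.243% to 0.598%, 0.0107% to 0.152% and 0.197% to 0.602% in the controls. In the iECKO libraries they were 0.0415% to 0.213%, 0.0109% to 0.324% and 0.202% to 0.619%. The groups overlapped fully, with a high and a low library in each. The mean was 0.268% ± 0.187 in controls and 0.187% ± 0.158 in iECKO (SD, n = 3 each), a difference of -0.080 percentage points (two-sided exact permutation p = 0.9, with 0.1 as the smallest value this design can give). Shares within replicate numbers were lower in iECKO in 1 of 3 pairs.

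**Figure D1:**
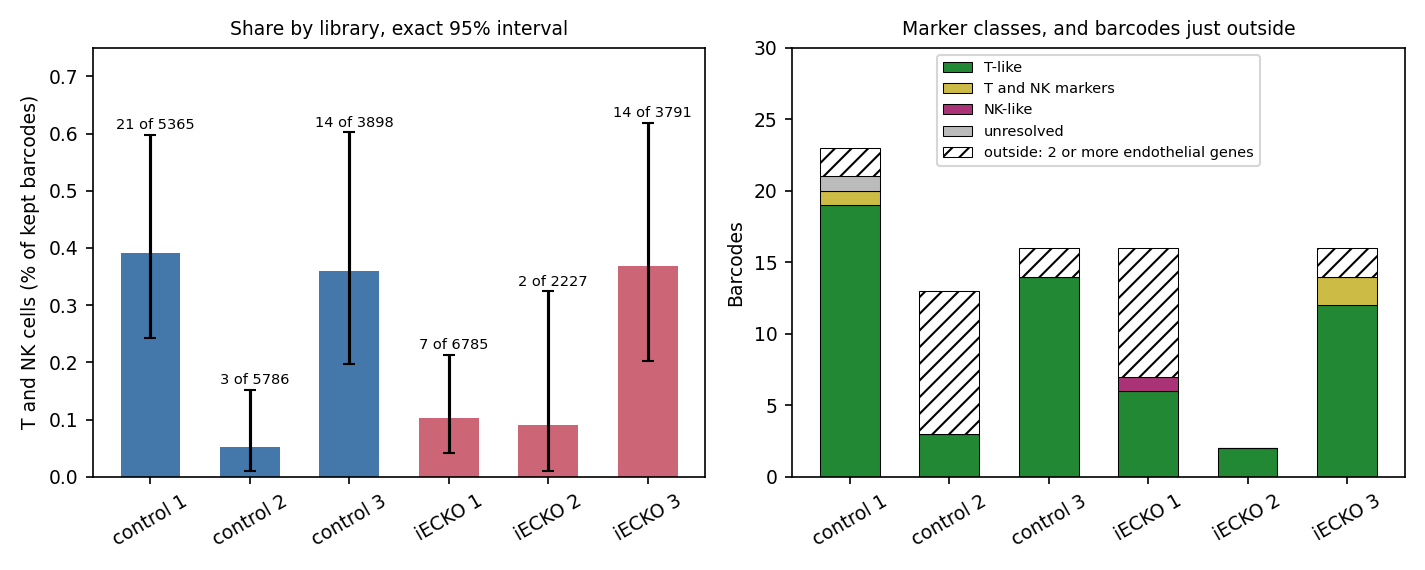
The left panel plots the share of kept barcodes that are T and NK cells (y, percent) in each of the 6 libraries, with exact 95% intervals and the counts above the bars (blue, control; red, iECKO). The right panel stacks the members by marker class and adds, hatched, the 25 barcodes with 2 or more endothelial genes, of which 5 also held C1qa or Cd79a. Control 1, control 3 and iECKO 3 sit at 0.359% to 0.391%, the other libraries at 0.103% or below, and the hatched part is tallest in control 2 (10) and iECKO 1 (9).

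The same 3 libraries were not uniformly rich in other leukocytes. B cells, gated on Cd79a and a second B cell gene, made up 0.298%, 0.242% and 1.15% of kept barcodes in the controls, by replicate number, and 0.251%, 0.18% and 0.712% in the iECKO libraries. Replicate 3 of each group thus had the most B cells, while control 1 had the most T and NK cells and few B cells. Gated microglia ranged only from 1.84% to 2.93%. The median depth of gated endothelial cells was lowest in control 1 and control 2 (3778 and 3863 UMIs) and highest in iECKO 3 (6056 UMIs). The part of depth in the lymphocyte share was not tested.

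Some barcodes lay close to the limits of the rule. Of the members, 13 showed exactly 2 of the 5 markers and 48 showed 3 or more. A further 9 barcodes showed 1 marker and met all other limits, and 6 of these were in iECKO 1. No endothelial gene was detected in 47 members, and 14 had 1, at no more than 2 UMIs. Another 25 barcodes had 2 or more markers but also 2 or more endothelial genes, and 5 of them also held C1qa or Cd79a, so that the endothelial limit alone kept out 20. They were uneven across libraries, with 10 in control 2, 9 in iECKO 1, 2 each in control 1, control 3 and iECKO 3, and none in iECKO 2. In control 2 these barcodes held 3000 to 6294 UMIs, close to the members' depth, while 5 of the 9 in iECKO 1 held 27619 to 54259 UMIs, far above any member. Among all kept barcodes with 2 or more endothelial genes, these 25 included, the 5 markers were each found in at most 0.218% in any library. Of T cell genes outside the rule, Cd3d was found in at most 0.177% (iECKO 3) and Trac in at most 0.97% (iECKO 1). These values describe how often the genes were found in such barcodes, and the part of free RNA and of mixed droplets in them was not tested.

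Doublets were not removed by a caller in the main analysis, and only the rule's limits on endothelial, microglial and B cell genes bear on them. Removing the highest Scrublet scores (0.8% per 1000 barcodes) left 21, 3 and 14 members in the controls and 0, 2 and 14 in iECKO. All 7 members of iECKO 1 were thus among its 368 highest-scoring barcodes, while no member of the other 5 libraries was lost. What raised the scores of those 7 cells was not tested, and results that rest on iECKO 1 are named as such.

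Most members carried T cell markers, which the rule fixed in part: Cd3e, Cd3g and Trbc2 are among both its 5 genes and the 6 T cell markers used here. With at least 1 CD3 gene, at least 2 of 6 T cell markers (Cd3d, Cd3e, Cd3g, Trac, Trbc1, Trbc2) and at most 1 of 10 NK markers, 56 were T-like. Another 3 had CD3 and 2 or more NK markers (1 in control 1, 2 in iECKO 3), 1 was NK-like (iECKO 1) and 1 was unresolved (control 1). In all, 59 of 61 held a CD3 UMI, and 53 held none of the 10 NK markers. Of the T cell markers outside the rule, Cd3d was found in 54 cells, Trac in 43 and Trbc1 in 25. By these classes 1 cell was NK-like, so the levels below are mainly those of T-like cells.

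The CD3 subunits are the signalling part of the T cell receptor. Cd3g was detected in 59 of 61 cells (268 UMIs, 1092 CPM): in 20 of 21, 3 of 3 and 14 of 14 control members by replicate number, and in 6 of 7, 2 of 2 and 14 of 14 iECKO members. Cd3d, which the rule did not name, was found in 54 cells (229 UMIs, 933 CPM): in 17, 2 and 14 of the control members and in 5, 2 and 14 of the iECKO members. Cd3e was found in 48 cells (104 UMIs, 424 CPM), with 16, 3 and 11 in the controls and 5, 2 and 11 in iECKO. All 6 libraries thus held the 3 transcripts. Gated endothelial cells showed Cd3d at 0.0442 CPM, while their 0 CPM of Cd3g and Cd3e is fixed by their gate, which allowed none of the 5 markers.

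The 3 genes are neighbours on chromosome 9 of GRCm38. Cd3g (ENSMUSG00000002033) lies at chr9:44969572-44980431 on the minus strand, Cd3d (ENSMUSG00000032094) at chr9:44981786-44987339 on the plus strand and Cd3e (ENSMUSG00000032093) at chr9:44998740-45009627 on the minus strand. Cd3d and Cd3g start 1355 bases apart and are read away from each other. Their promoters are shown because these genes define the cells and are detected together. That of Nkg7 (ENSMUSG00000004612, chr7:43437073-43438249, plus strand) is shown because Nkg7 was found mostly in the Cd8 cells described further on. It was found in 16 of 22 Cd8 cells, in 0 of 16 Cd4 cells and in 4 of 21 cells with neither coreceptor. Nkg7 is a gene of the rule, so its spread over the members is given as a description. Each window runs from 250 bases before to 50 after the RefSeq start on GRCm38.p6, printed 5′ to 3′ on the gene's strand. Capitals in the CD3 windows mark CACCTG or its reverse complement CAGGTG, an E box of the kind E proteins bind.
Cd3d, chr9:44981536-44981835 (plus strand): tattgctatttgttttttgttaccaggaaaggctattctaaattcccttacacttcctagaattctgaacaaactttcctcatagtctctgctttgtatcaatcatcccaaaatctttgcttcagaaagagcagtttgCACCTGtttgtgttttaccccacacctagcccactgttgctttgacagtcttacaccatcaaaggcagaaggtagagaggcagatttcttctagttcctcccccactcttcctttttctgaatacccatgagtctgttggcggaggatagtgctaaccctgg
Cd3g, chr9:44980382-44980681 (minus strand): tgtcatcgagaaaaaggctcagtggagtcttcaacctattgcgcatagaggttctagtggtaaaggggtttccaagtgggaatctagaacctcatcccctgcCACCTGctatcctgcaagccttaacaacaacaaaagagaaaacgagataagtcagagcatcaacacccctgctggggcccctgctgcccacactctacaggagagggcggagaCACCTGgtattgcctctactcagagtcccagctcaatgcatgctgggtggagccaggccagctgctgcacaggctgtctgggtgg
Cd3e, chr9:45009562-45009861 (minus strand): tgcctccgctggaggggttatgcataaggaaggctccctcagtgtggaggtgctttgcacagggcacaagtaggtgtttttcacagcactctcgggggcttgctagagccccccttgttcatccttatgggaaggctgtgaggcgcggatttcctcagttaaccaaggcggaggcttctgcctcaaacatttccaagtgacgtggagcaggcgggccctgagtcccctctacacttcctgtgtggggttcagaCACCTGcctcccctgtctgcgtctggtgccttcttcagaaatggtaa
Nkg7, chr7:43436888-43437187 (plus strand): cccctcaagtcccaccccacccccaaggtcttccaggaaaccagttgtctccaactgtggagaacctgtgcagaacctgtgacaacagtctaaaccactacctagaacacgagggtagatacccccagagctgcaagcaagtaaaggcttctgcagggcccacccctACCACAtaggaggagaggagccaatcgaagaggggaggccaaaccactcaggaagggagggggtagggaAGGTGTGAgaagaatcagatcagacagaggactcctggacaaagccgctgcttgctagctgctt
The Cd3d and Cd3e windows hold 1 such E box each and the Cd3g window 2, and 20.2% of 32851 promoters of the same length hold at least 1 on either strand. In the Nkg7 window, which holds no CACCTG or CAGGTG, capitals mark 1 Runx core (TGTGGT or ACCACA, in 16.8% of promoters) and 1 T-box site (AGGTGTGA or TCACACCT, in 1.28%). The motifs do not overlap one another in these windows and were chosen after the sequences were seen. A match of letters is a description and shows no binding.

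The receptor chains gave the same picture. Trbc2, a constant segment of the beta chain, was found in 57 cells (327 UMIs, 1332 CPM) and Trbc1, its near-identical copy, in 25 (96 UMIs, 391 CPM), with 23 cells holding both. Reads shared by the copies could be split between them, so which of the 2 a cell uses is uncertain here. Trac, the alpha constant segment, was found in 43 cells (110 UMIs, 448 CPM), with 12 of 21, 2 of 3 and 13 of 14 in the controls and 4 of 7, 1 of 2 and 11 of 14 in the iECKO libraries. All 14 genes of the receptor and coreceptor list had a UMI, and their summed level was 5860 CPM in members against 2.21 CPM in endothelial cells, 4.49 CPM in microglia and 5.91 CPM in B cells, a contrast that the gates on Cd3e, Cd3g and Trbc2 set in part.

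The proximal signalling list was also complete, with a UMI for 14 of 14 genes and 2294 CPM in sum against 86.9 CPM in endothelial cells. Lck, the kinase that phosphorylates CD3, was at 253 CPM (31 cells), Lat, the scaffold that follows it, at 200 CPM (30 cells), and Skap1, an adaptor linking the receptor to integrins, at 285 CPM (37 cells). Ptprcap, which associates with CD45, reached 420 CPM but was at 632 CPM in B cells. Zap70, the kinase that docks on CD3, was sparse (86 CPM, 14 cells).

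The 20 leading genes are those with the largest ratio to endothelial cells (5 CPM added to both, at least 100 CPM in members, predicted genes left out). Of the rule's own genes, Ccl5, Trbc2, Cd3g and Cd3e are among them, with ratios that the gates set in part, since no endothelial cell compared could hold a UMI of theirs. The CD3 and receptor genes among the 20 that the rule did not name are Cd3d, Trac and Trbc1. Cd52, a small surface glycoprotein of lymphocytes, was the only gene of these detected in all 61 cells (530 UMIs, 2160 CPM), and B cells held it at 2076 CPM. Ms4a4b, a membrane protein of T cells, was at 1231 CPM in 57 cells and at 20.7 CPM in B cells. Il7r, the interleukin-7 receptor on which resting T cells depend, was at 778 CPM in 47 cells, against 66.7 CPM in microglia and none in B cells. Bcl11b, a transcription factor that holds T cell identity, was at 350 CPM in 37 cells and at 0 in B cells and microglia. Ltb, which encodes lymphotoxin beta, and Coro1a, an actin regulator of leukocytes, were at 721 and 750 CPM in members and higher in B cells (924 and 904 CPM). Selplg, the P-selectin ligand used for rolling on vessels, was the exception among the 20 in being higher in microglia (1933 CPM) than in members (395 CPM).

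**Figure D2:**
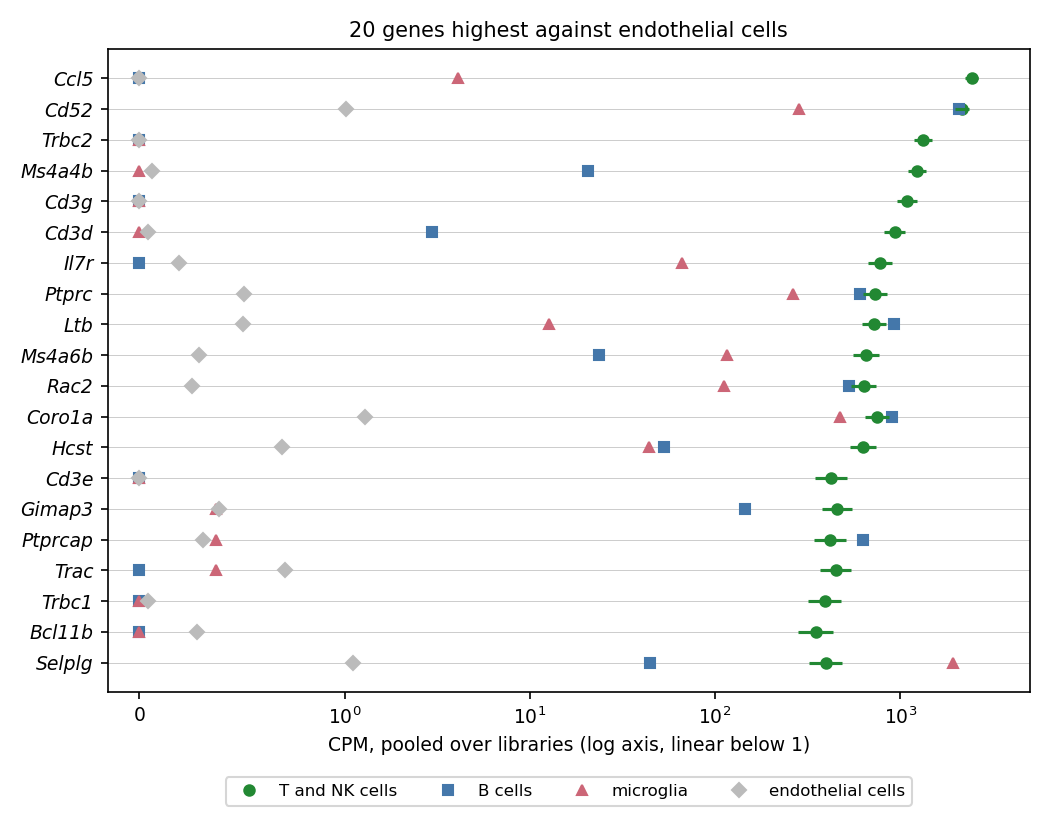
For each of the 20 leading genes (rows), the level pooled over libraries is plotted in CPM on an axis that is logarithmic above 1. Green circles are the 61 T and NK cells with exact Poisson 95% intervals, blue squares 123 B cells, red triangles 701 microglia and grey diamonds 23653 endothelial cells. The endothelial values all lie below 1.3 CPM, and B cells come close to the members for Cd52, Ptprc, Ltb, Rac2, Coro1a and Ptprcap but not for the CD3 and receptor genes.

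The single NK-like cell, from iECKO 1, held 3013 UMIs. It had no Cd3d, Cd3e or Cd3g UMI, 2 of Trbc1, 19 of Ccl5 and 5 of Nkg7. Of its NK genes, it held 6 UMIs of Ncr1, the activating receptor NKp46, 3 of Klrb1c, the NK1.1 antigen, and 10 and 7 UMIs of the adaptors Tyrobp and Fcer1g. No T-like cell held Tyrobp, Ncr1 or Klrb1c, and 2 held Fcer1g with 1 UMI each. The most abundant T-like genes missing from the NK-like cell were Klf2 (53 of 56 T-like cells), Rps15, Hsp90ab1, Trbc2, Rpl7a and Cd3g. Its class rested on Ncr1 and Klrb1c and required the absence of CD3, while T-like cells could hold at most 1 of the 10 NK markers. The contrasts in these genes are thus a description that the classes set in part. Tyrobp and Fcer1g were not used to class cells. This cell also held 2 UMIs of Flt1 and was among the high Scrublet scores of its library. With 1 cell no level of an NK population can be given, and 1 UMI in it is worth 332 CPM.

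Barcodes with NK markers also lay outside the rule. Of the 25 barcodes with 2 or more endothelial genes, 6 had no CD3 UMI, and 2 of these 6 also held C1qa or Cd79a. With CD3 at 0 the rule left only Ccl5, Nkg7 and Trbc2 to choose them, so their Ccl5 (22 to 86 UMIs) and Nkg7 (1 to 14 UMIs) are a description. They came from control 2 (4), control 3 (1) and iECKO 3 (1). Of the 10 NK markers, which hold no gene of the rule, 5 of the 6 barcodes showed 2 or more. The one in iECKO 3 showed all 10, with 36 UMIs of Gzma, 57 of Flt1 and 17754 UMIs in all. The part of mixed droplets in these barcodes was not tested. Within the rule, the share of NK-like cells was 0 in each of the 3 libraries with at least 10 members (control 1, control 3 and iECKO 3), so this design, which cannot reach a two-sided exact permutation p below 0.333, gave p = 1. A count of 0 allows a share of up to 15.8% of 19 cells, 21.4% of 14 and 25% of 12 in these libraries.

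Of the 17 genes of the NK receptor list, 12 had a UMI in at least 1 member, and Klra4, Klra7, Klra8, Klrc1 and Fcgr3 had none. The list was led by Klrd1 and Cd226, which activated and Cd8 T cells also carry, and its sum was 705 CPM in members.

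The unresolved cell of control 1 held 2954 UMIs, no CD3 and no Trbc UMI, and 1 UMI of Trdc. It carried 23 UMIs of Xcl1 and 18 of Ccl4, chemokines of activated lymphocytes, and 6 each of Fcer1g and Il2rb. It also held 1 UMI of Ncr1, 5 each of Klrd1 and Ctsw, 4 of Klrk1, 3 of Ccl5 and 1 of Nkg7, so that 1 of the 10 NK markers was found in it, below the 2 asked of an NK-like cell. Interferon-induced genes were also high in it, with 11 UMIs of Bst2, 9 of Irf7 and 5 of Ifit3. It was the source of 23 of the 36 Xcl1 UMIs and 18 of the 29 Ccl4 UMIs in the members.

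The coreceptors divided most T cells. Cd4 alone was detected in 16 cells, Cd8a or Cd8b1 alone in 22, both kinds in 2 and neither in 21. By library the Cd4 cells numbered 5, 1 and 2 in the controls and 1, 0 and 7 in iECKO, and the Cd8 cells 6, 2 and 5 in the controls and 4, 1 and 4 in iECKO. Control 1 had 10 cells with neither and iECKO 3 had 2, beside a median of 3335 UMIs per member in control 1 and 4653 in iECKO 3. When every member was thinned to 1500 UMIs, which left out no cell, the Cd4 cells were 3, 3 and 5 and those with neither were 14, 8 and 6 in control 1, control 3 and iECKO 3. These are low-count genes, with 25 UMIs of Cd4, 31 of Cd8a and 72 of Cd8b1 in all members, so a cell with neither is one in which no coreceptor was detectable at this depth.

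Of the 15 genes of the cytotoxic list, 13 were at a higher level in the Cd8 cells than in the Cd4 cells, and 2, Ctsd and Lamp1, at a lower one. Such a count was not made over all genes. Other lists also leaned to Cd8 cells (interferon-induced genes 14 to 3, MHC class I 10 to 2) or to Cd4 cells (receptor signalling 10 to 4). The cytotoxic list summed to 2691 CPM in Cd8 cells and 683 CPM in Cd4 cells. Most of its genes had few UMIs, and the 2 cells highest for Ccl5, both Cd8 cells, gave 145 of the list's 396 UMIs. Nkg7, a protein of cytotoxic granules and a gene of the rule, was found in 16 of the 22 Cd8 cells, in none of the 16 Cd4 cells and in 4 of 21 with neither. The count of 0 allows up to 18.8% of Cd4 cells with a UMI at this depth and does not bound the share expressing the gene. Ctsw, a cathepsin of cytotoxic cells that the rule did not use, was found in 11, 1 and 4 of these groups. Klrd1, the CD94 receptor chain, from the NK receptor list, was found in 18, 2 and 2. Srgn, a granule proteoglycan of many blood cells, was found in 18, 12 and 16, and Ctsd, a lysosomal cathepsin, in 6, 8 and 5. The median depths were 4483 UMIs for Cd8 cells, 4278 for Cd4 cells and 3335 with neither. Nkg7 was found in members of every library, in 7, 1 and 3 cells of the controls and 4, 1 and 4 cells of the iECKO libraries, and at 0 CPM in endothelial cells, microglia and B cells, which is partly how they were gated.

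**Figure D3:**
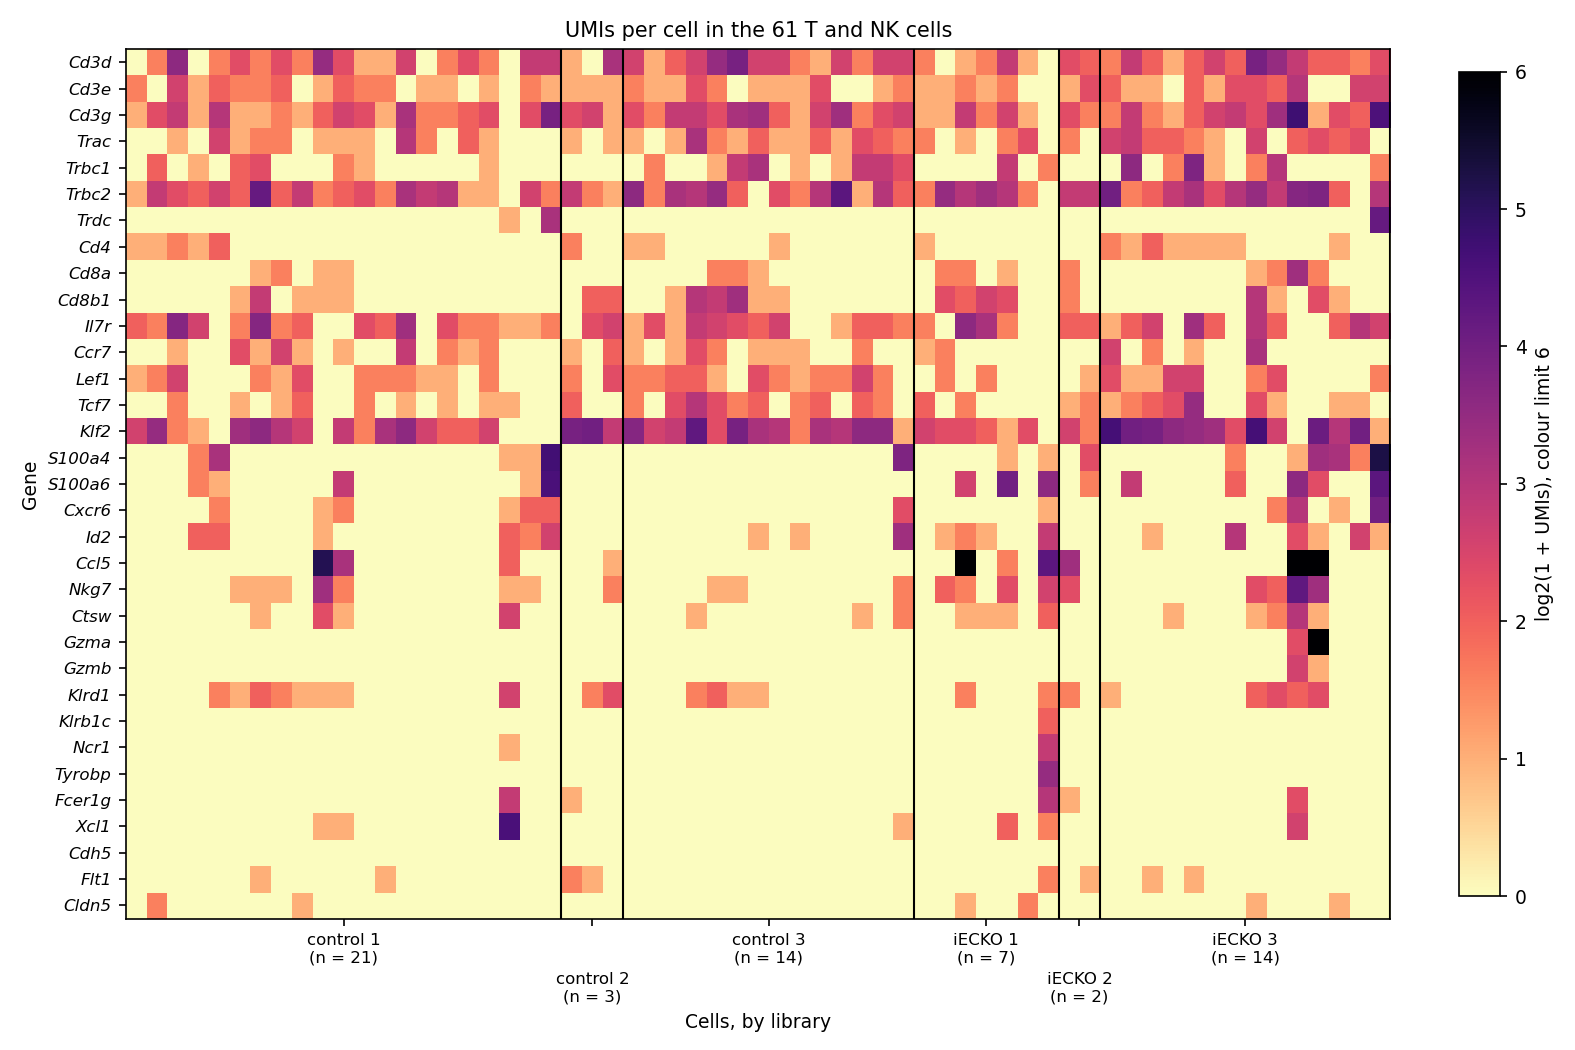
Each column is 1 of the 61 cells, grouped by library with Cd4 cells first, then Cd8 cells, both and neither, and each row is a gene; colour gives log2(1 + UMIs), with values above the limit of 6 shown at it. The Cd3g and Trbc2 rows are filled in nearly every column (59 and 57 cells), and the Cd3d and Cd3e rows in 54 and 48. Nkg7 and Klrd1 are filled mostly in Cd8 columns, and the rows Klrb1c and Tyrobp in 1 cell of iECKO 1 only.

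Ccl5, a chemokine stored by memory and cytotoxic T cells, is a gene of the rule, and its distribution over the members was uneven. Its 595 UMIs (2425 CPM) came from 10 cells, and 443 of them (74.5%) from 2 cells of iECKO 3, with 243 and 200 UMIs. By library it gave 45, 1 and 0 UMIs in 3, 1 and 0 cells of the controls, against 97, 9 and 443 UMIs in 3, 1 and 2 iECKO cells. In iECKO 1, 76 of the 97 UMIs were in a single Cd8 cell and 19 in the NK-like cell. The pooled level of Ccl5 is thus set by a few cells, and a difference between groups was not tested. Of these 10 cells, 8 were Cd8 cells and 2 had neither coreceptor, and none was a Cd4 cell.

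The same 2 cells of iECKO 3 held all the granzyme A and B seen in the members. Gzma gave 72 UMIs in one and 4 in the other, and Gzmb 1 and 5. Both had CD3 (1 to 26 UMIs of Cd3g), Cd8a and at least 9 UMIs of Nkg7, and both were counted as having T and NK markers, the third being a Ccl5-high Cd8 cell of control 1 with 1 UMI each of Eomes and Prf1. Both held 4 UMIs of Klre1, an NK receptor gene, and the cell with 200 Ccl5 UMIs also held 7 of Klra9 and 14 of Klra6, genes of the Ly49 family whose members are close copies. Neither held Klrb1c or Ncr1. Outside the rule, barcodes with 2 or more endothelial genes also held Gzma, with up to 20 UMIs in control 2, 27 in control 3 and 36 in iECKO 3. Prf1 (perforin) was found at 1 UMI in each of 6 cells. All 15 genes of the cytotoxic list had a UMI, but Srgn and Ctsd, which other cells share, were among its top 5 with Gzma, Nkg7 and Ctsw, and the list's sum of 1614 CPM was below the 5373 CPM of microglia.

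Most members held at least 1 UMI of genes that mark naive and central memory T cells, some of them no more than 1. At least 1 of Ccr7, Lef1, Tcf7, Igfbp4 and Dapl1 was found in 49 of 61 cells: in 16 of 21 in control 1, 13 of 14 in control 3 and 11 of 14 in iECKO 3. Ccr7, the lymph node homing receptor, was found in 26 cells (245 CPM), and the transcription factors Lef1 and Tcf7 in 37 (363 CPM) and 33 (338 CPM). Endothelial cells held Lef1 at 454 CPM and Tcf7 at 67 CPM, but Ccr7 at only 0.0569 CPM. Klf2, a factor of quiescent T cells that controls S1pr1, was found in 54 cells (1732 CPM) and is as high in endothelial cells (2121 CPM).

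A smaller set carried S100a4, a calcium-binding protein of effector and memory cells, or Cxcr6, a receptor of tissue-homing T cells. This split was chosen after the values were seen. It took in 18 of 61 cells: 7 of 21, 0 of 3 and 1 of 14 in the controls and 2 of 7, 1 of 2 and 7 of 14 in the iECKO libraries. The 5 naive genes summed to 265 CPM in these 18 cells and to 1906 CPM in the other 43, at median depths of 4102 and 3813 UMIs. Only 7 cells had transcripts of both kinds, 11 had S100a4 or Cxcr6 alone, 42 had naive genes alone and 1 had neither. Id2, a regulator of effector differentiation, was found in 13 of the 18 cells (663 CPM) and 6 of the 43 (41.2 CPM), and Ccr2, an inflammatory chemokine receptor, in 9 and 0. S100a6 was found in 12 and 2 cells, and Ccr7 the other way, in 1 and 25. The 18 cells were spread over coreceptors, with 3 of the 16 Cd4 cells, 6 of the 22 Cd8 cells, 8 of the 21 with neither and 1 of the 2 with both.

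**Figure D4:**
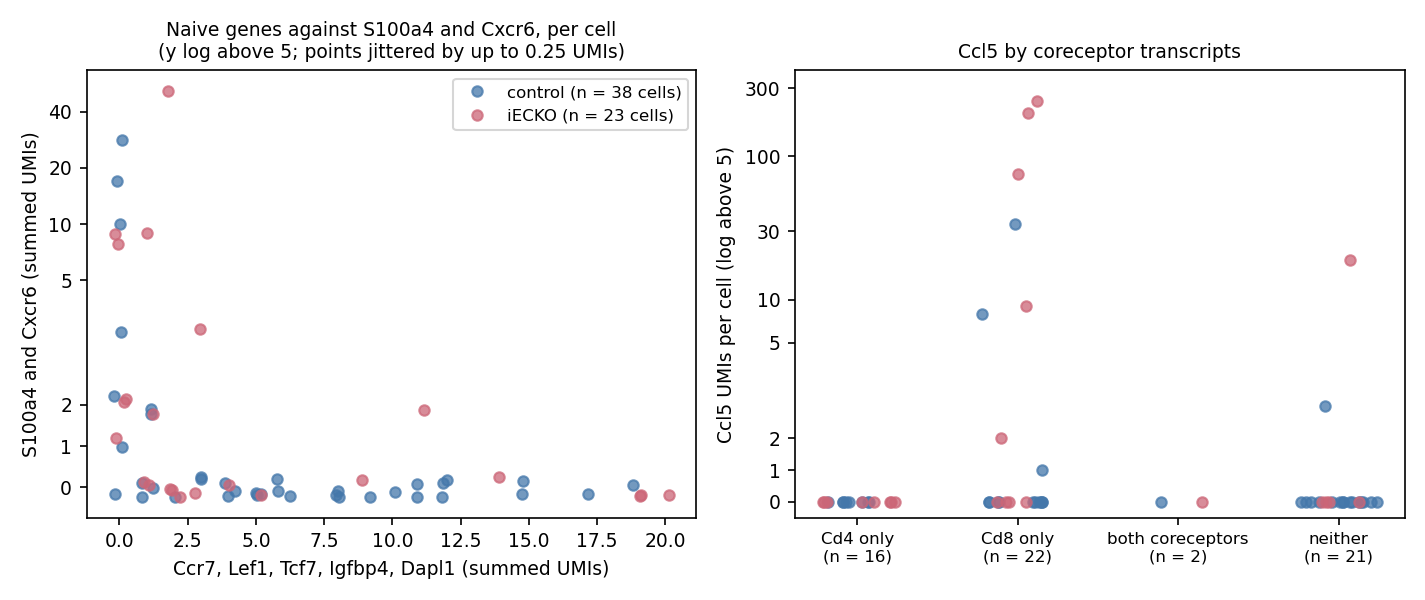
The left panel plots, for each of the 61 cells, the summed UMIs of 5 naive genes (x) against those of S100a4 and Cxcr6 (y, logarithmic above 5), with small jitter. The right panel plots Ccl5 UMIs per cell (y, logarithmic above 5) by the coreceptor transcripts found. Cells lie along the axes of the left panel, with 7 holding both kinds of transcript, and Ccl5 is at 0 in all 16 Cd4 cells while the cells at 243 and 200 UMIs are Cd8 cells of iECKO 3.

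A pair of cells carried transcripts of the gamma-delta receptor. Trdc, the delta constant segment, gave 26 UMIs in 3 cells: 8 in a cell of control 1, 17 in a cell of iECKO 3 and 1 in the unresolved cell. The cells of control 1 and iECKO 3 also held 13 and 6 UMIs of Trdv4, a delta variable segment, and 4 and 13 of Cd163l1, a scavenger receptor of gamma-delta T cells, and no Trac UMI, though 2 and 7 UMIs of Trbc2. They held 25 and 37 UMIs of S100a4, together 53.9% of that gene's UMIs, and no coreceptor. The cell of iECKO 3 also held 4 UMIs of Tcrg-V6. Without these 2 cells, S100a4 would rest on 13 cells.

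Cytokine transcripts were few. Of 15 chemokine and cytokine genes 8 had a UMI, and Ccl3, Il4, Il10, Il13, Il17a, Csf2 and Lta had none, which at the pooled depth allows up to 12.2 CPM. Ifng gave 7 UMIs in 5 cells (2 in control 1, 3 in iECKO 3) and Tnf 1 UMI. Xcl1 was found in 7 cells with 36 UMIs, and Ltb in 53 cells with 177.

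Activation genes differed in how widely they were found. Cd69, an early activation and retention marker, was found in 25 cells (273 CPM), at 261, 266 and 273 CPM in control 1, control 3 and iECKO 3. The activation and inhibitory list, which holds Cd69, was less even, at 386, 418 and 705 CPM in these libraries (31, 22 and 49 UMIs). The immediate-early genes Junb, Jun and Fos, which encode AP-1 factors, were found in 49, 39 and 31 cells (1178, 607 and 542 CPM), against 1078, 1591 and 938 CPM in endothelial cells. Of the 14 activation and inhibitory genes 11 had a UMI, while Tnfrsf9, Lag3 and Havcr2 had none, and Pdcd1 was found in 3 cells, Ctla4 in 3 and Tigit in 1. Foxp3, the factor of regulatory T cells, gave 1 UMI, in a Cd4 cell of control 1. Of the cell-cycle list 11 of 18 genes had a UMI, but Mki67, Ccnb1, Ccnb2, Ccna2, Birc5 and Ube2c had none and Top2a gave 2. Its highest members, Hmgb2 (440 CPM) and Tubb5, are not specific to dividing cells.

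The 13 lineage factors summed to 1565 CPM in members and 1492 CPM in endothelial cells. Ets1 was found in 54 cells (640 CPM), but was also at 579 CPM in B cells and 398 CPM in endothelial cells. Bcl11b was found in 37 cells and Runx3, a factor of Cd8 cells, in 22 (126 CPM). Of the cells with Runx3, 10 were Cd8 cells, 5 Cd4 cells and 7 had neither. Gata3 was found in 7 cells, Tbx21 in 2 and Eomes in 1. Of the innate lymphoid type 2 list, Il1rl1, Areg, Il13 and Arg1 were at 0.

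Homing and residency genes were mixed. Itga4, the integrin chain that binds VCAM1 on endothelium, was found in 26 cells (240 CPM): at 149 and 57 CPM in control 1 and control 3 and at 518 CPM in iECKO 3. S1pr1, the receptor for leaving tissue into blood, was found in 30 cells (228 CPM) and is at 712 CPM in endothelial cells. Itgae, an integrin of resident T cells, was found in 3 cells and Zfp683, a residency factor, in none. Itgam and S1pr5 were at 0 as well, and 15 of the 17 homing genes in the table had a UMI.

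Interferon-induced and antigen-presentation genes were counted next. Of the 20 interferon genes, 1 was found in more than 50% of the cells and 6 were at a higher level than in endothelial cells, with sums of 1691 CPM in members and 1633 CPM in endothelial cells. Ifi27l2a was found in 36 cells (603 CPM) against 46.1 CPM in endothelial and 794 CPM in B cells. Isg15, a ubiquitin-like protein induced by interferon, was found in 7 cells (44.8 CPM) against 197 CPM in endothelial cells, Ifit3 in 3 cells, Ifit1 in 2 and Oasl2 in none. The 20 genes summed to 2328, 1747 and 1353 CPM in control 1, control 3 and iECKO 3, where the unresolved cell is part of control 1. H2-K1, H2-D1 and B2m, the parts of MHC class I, were found in 60, 60 and 59 of 61 cells, at 1956, 1748 and 1471 CPM, against 1026, 1127 and 1201 CPM in endothelial cells.

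Genes of general cell function were set against other cells in the same way. The 18 actin and motility genes summed to 28528 CPM in members and 21167 CPM in endothelial cells, led by Tmsb4x and Tmsb10, which bind actin monomers, while 13 glycolysis genes summed to 1190 CPM against 3061 CPM. Tmsb10 was at 4886 CPM in members, 1586 CPM in endothelial cells and 2440 CPM in B cells.

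A test of genes by genotype needed at least 2 libraries of 10 members in each group, and only control 1 (21), control 3 (14) and iECKO 3 (14) reached 10. No such test was made, and the levels of the single iECKO library are set beside the controls as a description of these libraries, with exact Poisson 95% intervals that cover counting error only. The receptor and coreceptor list summed to 4692 (4231 to 5191) CPM in control 1 and 7141 (6437 to 7900) CPM in control 3. In iECKO 3 the sum was 6923 (6318 to 7570) CPM, between the controls. The list holds Cd3e, Cd3g and Trbc2, which are genes of the rule, and its 14 genes were not set against all genes. The naive and memory list gave 3684, 6248 and 5152 CPM in control 1, control 3 and iECKO 3, again between the controls. The chemokine and cytokine list gave 2240, 855 and 7081 CPM and the cytotoxic list 1021, 703 and 2994 CPM, where the 2 Ccl5-high cells of iECKO 3 carry 456 of its 492 UMIs of the chemokine and cytokine list. The NF-kappaB list gave 597, 513 and 1007 CPM and the immediate-early and heat-shock list 8937, 6913 and 9657 CPM. The lineage factor list gave 1319, 1386 and 2317 CPM and the homing list 1942, 1614 and 2893 CPM, above both controls in iECKO 3. The interferon list, given earlier, was below both controls in iECKO 3. The median depth per member was 3335 and 3525 UMIs in the controls and 4653 in iECKO 3, a difference of 1223 UMIs. Its two-sided exact permutation p was 0.333, and with 2 libraries against 1 no smaller value is possible.

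Marker lists of other cell types were counted in the members as well. The 12 endothelial genes summed to 579 CPM against 30794 CPM in endothelial cells, a contrast that the gates fixed in part, since Cdh5, Flt1 and Cldn5 were limited in members and used to gate the endothelial cells. Cdh5 was at 0, as was Kdr, which no gate used, and Bsg, the most abundant of them, was at 208 CPM against 9904 CPM. By library Bsg ranged from 112 CPM (iECKO 2) to 288 CPM (iECKO 3). Of the 10 pericyte and smooth muscle genes 8 were at 0, and of the 6 mast cell and basophil genes all were. Microglial P2ry12, Csf1r, Mrc1 and Aif1 were at 0, and the 12 microglial and macrophage genes summed to 167 CPM against 42490 CPM in microglia, with 187, 228 and 86.4 CPM in control 1, control 3 and iECKO 3. Of the B cell genes Ms4a1, H2-Aa and Ebf1 were at 0, while Ighm gave 29 UMIs in 18 cells (118 CPM against 2980 CPM in B cells). Of the 9 neutrophil and monocyte genes S100a8, S100a9, Retnlg, Csf3r, Cxcr2 and Lcn2 were at 0. The other 3, Ly6c2, Ccr2 and Plac8, gave 49 UMIs in 22 cells, or 200 CPM in sum against 71.3 CPM in endothelial cells and 152 CPM in microglia, with 286, 38 and 230 CPM in control 1, control 3 and iECKO 3. The 8 dendritic cell genes summed to 167 CPM, with Flt3, Siglech, Cd209a, Xcr1, Clec9a and Ccl22 at 0. Globin and other erythrocyte genes summed to 97.8 CPM in members against 7155 CPM in endothelial cells, and platelet genes to 36.7 CPM. Of the 10 neural genes only 3 had a UMI, and 21 of their 39 UMIs were of Mbp, in 18 cells. The part of these levels in the results above was not tested.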

How the data were processed

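The deposited files hold raw UMI counts per gene and barcode for 6 libraries, which per the file headers came from the authors' run of Cell Ranger 6.1.1, on mm10 per the submitters' processing notes, which also name Seurat. The counts were deposited without normalization. The barcode and feature tables deposited with them hold names only. Each library had 2714 to 7420 barcodes and 15727366 to 49350802 UMIs.

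Barcodes were filtered and gated as the report states. CPM are UMIs per 1000000 in the summed cells. Comparison cells were gated endothelial cells (at least 2 of 3 endothelial genes, none of the 5 markers), microglia (at least 3 of 6 genes) and B cells. The members, the marker classes and the 28 gene lists were chosen with earlier results of these data known. Named genes were the gate genes, the 20 leading genes, up to 10 genes each way between T-like and NK-like cells and up to 5 per list with the highest level. Other named genes, among them Trdv4, Cd163l1, S100a4, S100a6 and the Ly49 genes, were chosen after their values were seen. Of 32286 features, 32158 had coordinates in GENCODE M21 on GRCm38. In the lists, 1 symbol was not found and Aldoa, named by more than 1 feature, was left out. Promoters came from RefSeq tables for GRCm38.p6.

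Libraries were compared by two-sided exact permutation tests over libraries at 0.05, with the replicate number as a block as an alternative. Same-numbered libraries deviated together in their endothelial sums (r of 0.485, 0.487 and 0.445 over 12389 genes, which are not independent), and the block changed no call. The planned edgeR test of genes by genotype was not run, because 1 iECKO library reached 10 members. The alternatives were other UMI and mitochondrial limits, other marker limits, another denominator, thinning, doublet removal and each library left out in turn. The ratio of levels was tested on simulated data. Python 3.11.15, numpy 2.4.6, scipy 1.17.1, pandas 2.3.3, scanpy 1.11.5 and matplotlib 3.10.9 were used.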

Additional observations from a re-analysis of the deposited data

How the results depend on the processing

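The share of T and NK cells kept its direction (lower mean in iECKO) and stayed above 0.05 in p under all 16 alternatives, of which 1, no limit on endothelial genes, was added after the data were seen. Over the cell filters and marker limits the difference ran from -0.0544 (5% mitochondrial limit) to -0.121 percentage points (highest Scrublet scores removed), and it was -1.17 points when only barcodes with at most 1 endothelial gene were the denominator. Each library left out moved it by more than 1.5 times, to -0.0181, -0.188 and -0.0342 points without control 1, 2 and 3 and -0.0379, -0.0312 and -0.171 points without iECKO 1, 2 and 3. The replicate block gave -0.0801 points with an exact sign-flip p of 1, where 0.25 is the smallest possible. Without the endothelial limit the libraries held 22, 12 and 15 members in controls and 14, 2 and 16 in iECKO. With at least 3 markers they held 16, 3 and 11 against 5, 2 and 11.

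The NK-like share stayed at 0 under its 5 alternatives. Each of these narrowed the rule or left out a library, so none could raise a share of 0. The setting without the endothelial limit was not run for this share. The depth difference ranged from 1042 to 1318 UMIs under its 3 alternatives, and leaving out iECKO 3 gave no value. No paired analysis was possible for these 2 results because only replicate 3 had 10 members in both groups. The alternatives of the gene test were not run, since that test was not made. With 2 to 21 members a library, counting error limits every library value.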
